A study of Mus musculus with 4 samples.

Results

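Mature oligodendrocytes of the mouse ventromedial prefrontal cortex (vmPFC) were chosen by their own transcripts, from 3 libraries of unsorted single cells, as the cells with at least 8 unique molecular identifiers (UMIs) summed over Mog, Mag, Ermn and Cldn11. They also had to carry fewer than 5 UMIs of the early lineage genes Gpr17, Enpp6 and Bmp4, and at most 2 UMIs each of the endothelial gene Cldn5, of the microglial genes Cx3cr1 and P2ry12 together, and of the neuronal genes Slc17a7, Gad1 and Gad2 together. Cells that the authors list as excitatory neurons were left out. The rule found 1657 cells, 586, 550 and 521 in the libraries of mouse 1, 2 and 3, among 19472 unsorted cells that passed the quality limits and 21263 in the whole series. They are called oligodendrocytes below, and the comparison group of other cells is the 10050 remaining unsorted cells that passed the limits and are not on the authors' list.

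The study recorded where single vmPFC neurons send their axons together with their transcriptome. Male C57BL/6 mice of 8 weeks received 5 retrograde viruses (rAAV2-retro with EGFP and a barcode) on 1 side. The targets were the lateral hypothalamus (LH), the basolateral amygdala (BLA), the mediodorsal thalamus (MD), the dorsomedial striatum (DMS) and the agranular insula (AI). The prelimbic (PrL) and infralimbic (IL) areas were dissected 6 weeks later and dissociated with enzymes in the presence of the glutamate receptor blockers CNQX and D-AP5. Each unsorted library was 1 mouse, and a sorted library pooled EGFP-positive cells of 3 further mice. All mice carried the viruses, so there was no uninjected control and every value below describes oligodendrocytes of injected, dissociated tissue. The labels name retrogradely labelled neurons as the cell type, and the oligodendrocytes are cells of the same tissue outside that name.

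Oligodendrocytes wrap axons in myelin, a stack of membrane held together by such proteins as myelin basic protein (Mbp) and rich in cholesterol and galactolipids. They arise from oligodendrocyte precursor cells (OPCs), which pass through a committed, postmitotic stage marked by Gpr17, Enpp6 and Bmp4 before the myelin genes are fully expressed. Mature cells are known to differ in such genes as Klk6, Opalin, Apod and Ptgds, and they also support axons through metabolites, iron handling and gap junctions with astrocytes.

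The sequences just upstream of 6 genes that recur in the results are shown, taken from RefSeq windows on GRCm38.p6 as the 150 bases before the annotated start, 5′ to 3′ on the strand of the gene. Opalin, Mobp and Mag encode myelin proteins, and Ptgds, Il33 and Klk6 are the genes that divide the oligodendrocytes below. Capitals mark ACAAAG or its reverse complement CTTTGT, the core letters bound by SOX factors such as Sox10, searched on both strands. The windows are chr19:41077114-41077263 (− strand) for Opalin, chr9:120149592-120149741 (+ strand) for Mobp, chr7:30914864-30915013 (− strand) for Mag, chr2:25469750-25469899 (− strand) for Ptgds, chr19:29924963-29925112 (+ strand) for Il33 and chr7:43824394-43824543 (+ strand) for Klk6.
Opalin: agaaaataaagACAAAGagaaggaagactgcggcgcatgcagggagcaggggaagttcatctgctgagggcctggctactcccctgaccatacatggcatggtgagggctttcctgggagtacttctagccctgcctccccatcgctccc
Mobp: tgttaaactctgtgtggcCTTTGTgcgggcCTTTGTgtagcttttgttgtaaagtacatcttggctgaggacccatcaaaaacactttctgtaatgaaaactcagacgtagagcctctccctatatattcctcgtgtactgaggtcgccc
Mag: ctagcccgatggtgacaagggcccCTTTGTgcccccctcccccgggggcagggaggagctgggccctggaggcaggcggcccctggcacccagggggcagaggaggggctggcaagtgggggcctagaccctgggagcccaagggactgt
Ptgds: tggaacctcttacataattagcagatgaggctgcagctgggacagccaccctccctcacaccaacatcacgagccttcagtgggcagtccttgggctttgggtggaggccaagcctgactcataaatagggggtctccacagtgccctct
Il33: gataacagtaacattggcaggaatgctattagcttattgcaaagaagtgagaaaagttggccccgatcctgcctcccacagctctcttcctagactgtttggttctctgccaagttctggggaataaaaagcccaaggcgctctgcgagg
Klk6: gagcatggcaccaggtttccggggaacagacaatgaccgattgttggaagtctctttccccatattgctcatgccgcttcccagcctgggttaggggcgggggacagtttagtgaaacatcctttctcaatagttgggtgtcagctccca
Within 250 bases upstream the letters occurred in 4447 of 27025 promoters (16.5%) and in 1326 of 11216 promoters of genes tested against other cells (11.8%). They occurred in 193 of the 1518 matched promoters of genes called higher in oligodendrocytes than in other cells (12.7%) and in 485 of 3766 of genes called lower (12.9%). The letters occurred in 4 of 8 promoters of the myelin protein list. The match is a description of letters only, the shares for higher and lower genes lay next to each other, and Klk6 had a match only beyond the bases shown. Some or all bases of the Mobp, Mag, Ptgds and Klk6 windows lie inside the longer gene models of GENCODE M21.

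The marker sum that chose the cells left a gap on both sides of the limit. Among cells inside all other limits, 2625 had 0 UMIs of the 4 markers, 70 had 1 or 2 and 16 had 3 to 7, just outside the limit. Just inside it, 25 cells had 8 to 12 UMIs and 81 had 13 to 19. The oligodendrocytes carried a median of 36 marker UMIs, with a range of 8 to 431. The other limits removed 208 further cells with 8 or more marker UMIs, of which 97 exceeded the early lineage limit, 20 the Cldn5 limit, 33 the microglial limit and 64 the neuronal limit, some more than 1 of them. These cells are part of the comparison group of other cells. No doublet caller was run, and 7 of the 1657 cells carried 5 or more UMIs of the astrocyte genes Aqp4 and Gja1, and 2 had over 20000 UMIs in all.

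**Figure D1:**
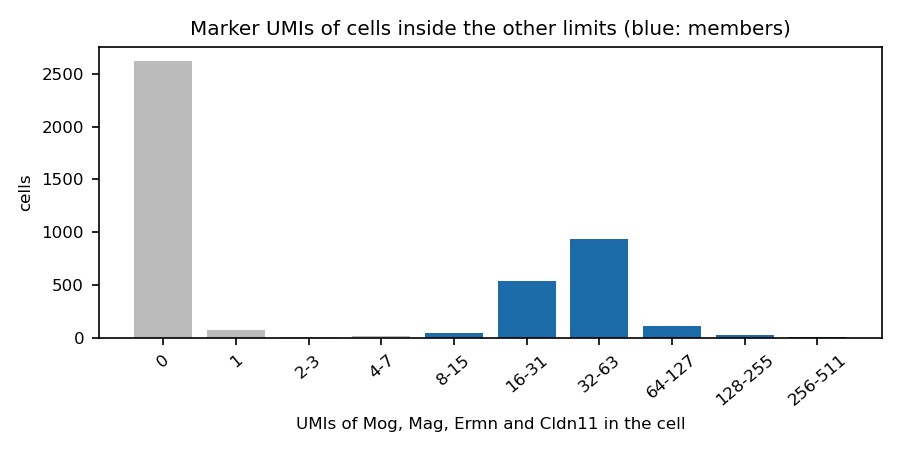
Number of cells (y axis) by UMIs of Mog, Mag, Ermn and Cldn11 in the cell (x axis, bins that double in width), for unsorted cells inside all other limits. Blue bars are the 1657 oligodendrocytes and grey bars the cells below the limit, 2625 of them at 0 UMIs and 16 between 3 and 7.

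Oligodendrocytes made up nearly the same share of each mouse's cells. They were 8.36% of the cells of mouse 1 (exact 95% interval 7.72 to 9.03), 8.69% of mouse 2 (8.00 to 9.41) and 8.50% of mouse 3 (7.81 to 9.23), a mean of 8.52% ± 0.166 (SD, n = 3). The intervals cover counting error only, and each overlaps the others. In the sorted library 8 of 1791 cells (0.447%, 0.193 to 0.878) passed the same rule, and that library has no replicate. A share of dissociated cells also depends on which cells survive, which was not tested.

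The libraries held 83065993 to 87841541 UMIs, and 11 to 30 cell barcodes were shared by any pair of unsorted libraries. The median oligodendrocyte had 4556.5, 4710.5 and 4859 UMIs and 1940.5, 1967 and 2005 genes in mouse 1, 2 and 3. Below, a level is in CPM, the UMIs of a gene in the summed cells of a group and library, scaled so that all such sums have the same total. Because libraries are 3′ tag counts, each transcript is counted once and levels need no division by length.

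The defining markers of mature oligodendrocytes were present and those of other cells were low. The 4 mature markers, which chose the cells, summed to 7967 to 8285 CPM in oligodendrocytes and 2.78 to 2.92 in the authors' excitatory neurons. They summed to 2674 to 2929 CPM in committed precursors (5 or more UMIs of Gpr17, Enpp6 and Bmp4, 608 cells). In OPCs (3 or more UMIs of Pdgfra and Cspg4, 1251 cells) they summed to 8.13 to 10.4. The OPC class was also held to at most 2 UMIs of the 4 mature markers and fewer than 5 of the early lineage genes, so its low sum was set by choice. The 3 OPC markers summed to 12.5 to 20.7 CPM, the 7 microglial markers to 40.7 to 43.3 against 5303 to 5763 in the other cells, the 5 endothelial markers to 3.70 to 8.72, the 5 mural markers to 5.03 to 35.7, the 6 astrocyte markers to 132 to 213, the 3 excitatory markers to 15.4 to 23.1 and the 3 inhibitory markers to 5.03 to 10.4. The rule itself limited Cx3cr1, P2ry12, Cldn5, Slc17a7, Gad1 and Gad2. The microglial, endothelial, excitatory and inhibitory sums were therefore low in part by the choice of cells. None of these markers was at 0 in the oligodendrocyte sums, and the part of these low levels in a result was not tested.

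Oligodendrocytes stood apart from every other class by their mitochondrial transcripts. The median share of mitochondrial UMIs per cell was 10.7%, 11.0% and 10.9% in the oligodendrocytes of mouse 1, 2 and 3, against 7.19%, 7.12% and 7.03% in the other cells. Astrocytes came next with 8.84%, 8.26% and 8.23%, and OPCs had 7.16%, 7.09% and 6.91%. Among cells of 3000 to 6000 UMIs the oligodendrocyte medians were 11.0% to 11.2%, and no library median of another class passed 8.34%. The cause of the difference was not tested. A limit of 10% mitochondrial UMIs, in place of 20%, lowered the share of oligodendrocytes among all cells to 3.43% ± 0.106 (n = 3).

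**Figure D2:**
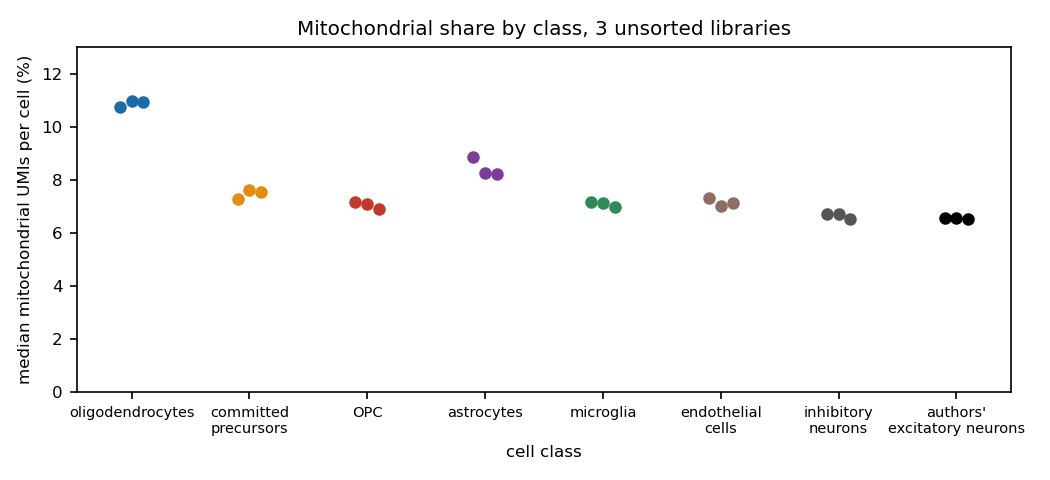
Median percent of mitochondrial UMIs per cell (y axis) for each cell class (x axis), 1 point per unsorted library. The 3 oligodendrocyte points lie between 10.7% and 11.0%, above all points of the other classes, the highest of which is 8.84% in astrocytes.

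By mean CPM over the 3 libraries the 10 highest genes included Malat1 (46226), mt-Atp6 (28965), the ferritin heavy chain Fth1 (23842), mt-Co3 (22551), mt-Co2 (16363), the prostaglandin D2 synthase Ptgds (14717), mt-Co1 (11657), mt-Cytb (10805) and mt-Nd4 (6681). Malat1 is a nuclear non-coding RNA and the mt genes are transcribed in mitochondria, so Fth1 and Ptgds were the nuclear-encoded messages among those named.

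Against all other cells, 2025 of 14849 tested genes were higher in oligodendrocytes (13.6%) and 5232 were lower (35.2%). A gene was called at an adjusted p under 0.05 by edgeR's quasi-likelihood test with the library as a block with a log2 fold change of 1 or more in size, and the 13 genes of the rule were left out of counts. Both groups of cells were separated by RNA of the same cells, so the test shows only that a difference repeats over 3 mice, and the counts below are descriptions. The fold changes are on the scale of TMM (trimmed mean of M-values) factors, which sets the median gene near no change, at -0.20. On the plain CPM scale, chosen as an alternative after the data had been seen, fold changes are 0.53 lower in the median, the median gene is at -0.73, and 1157 genes are called higher and 6436 lower. Levels are relative to the total of a group, so a change in RNA per cell and an opposite change of the remaining genes cannot be told apart.

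Genes of the myelin sheath were higher throughout. All 10 genes of the myelin protein list were higher than in other cells, with a median log2 fold change of 5.22 against -0.20 over all genes. Mbp, which compacts the membrane on its cytoplasmic face, stood at 5437, 5440.5 and 5304 CPM in the oligodendrocytes of mouse 1, 2 and 3 and at 204, 235 and 178 in the other cells. The groups did not overlap, and the log2 fold change was 5.25 (SE 0.0556). Mobp, another protein of compact myelin, stood at 2300.0, 2310 and 2248.5 CPM against 65.6, 64.7 and 66.1, a log2 fold change of 5.66 (SE 0.0303). Opalin, a glycoprotein of the sheath (19:41061710-41077113), stood at 1579.8, 1578 and 1485 CPM against 30.5, 28.9 and 26.8, a log2 fold change of 6.28 (SE 0.0345). The lowest of the list was Pllp at 3.11, which still did not overlap between the groups. The other cells included 208 cells with 8 or more mature marker UMIs. Against other cells with fewer than 8, a limit chosen after the data had been seen, all 10 genes were again higher, with a median of 6.92. That limit takes cells out by the rule's own genes, so larger values follow in part from the choice of cells. The log2 fold changes were 7.56 for Mbp, 9.17 for Mobp and 11.07 for Opalin. Mbp then stood at 44.3, 42.8 and 37.5 CPM in the other cells.

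**Figure D3:**
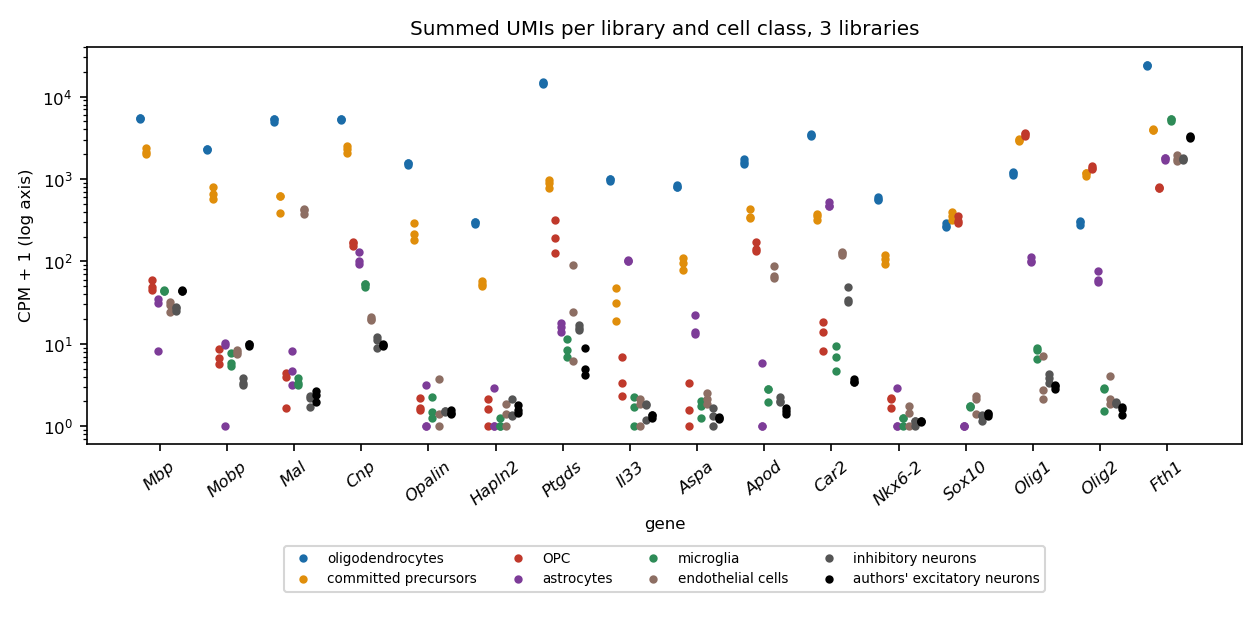
Level in CPM + 1 (y axis, log scale) of named genes in the sums of each cell class, 1 point per unsorted library. Mbp lies near 5394 CPM in oligodendrocytes, 2159 in committed precursors and 50.1 in OPCs, whereas Olig2 lies at 293, 1155 and 1380, in the opposite order.

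Genes that join the sheath to the axon and to other glia were also higher. Of the 13 genes for adhesion and the paranode, 11 were higher and none lower. Hapln2, a link protein of the nodal matrix, had a log2 fold change of 6.30, the receptor Gpr37 6.17 and the axonal-contact protein Cntn2 5.18, while Cadm1 was at -0.37 and was not called. Of 10 tested genes for junctions and channels, 8 were higher. The connexin Gjb1, which forms gap junctions of the sheath, stood at 219 ± 14.6 CPM (SD, n = 3) against 6.72, and the potassium channel Kcnj10 had a log2 fold change of 3.23. Trpm3 was lower, at levels of 0.839 CPM against 4.98.

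Most transcription factors of the lineage were higher. Of 17 tested, 13 were higher and 2 lower than in other cells, with a median of 1.92. Nkx6-2, known from late oligodendrocytes, stood at 606, 573 and 558 CPM against 11.2, 12.4 and 10.7, a log2 fold change of 6.19. Myrf, which switches on myelin genes, had a log2 fold change of 4.99 and St18 5.45. Sox10, expressed throughout the lineage, had 3.00, and Olig1 and Olig2, which are also expressed in OPCs, had 1.83 and 1.17. When each gated class of other cells was given the same weight, in place of the plain sum, 8 of the 17 were higher. Over all genes 1656 of 12723 were then higher and 3864 lower. The values were 1.86 for Sox10, 0.69 for Olig1, 0.66 for Nkx2-2 (1.92 in the plain sum) and 0.02 for Olig2, the last 3 not called. Myt1, a factor of early stages, and Sox9, known from astrocytes, were lower at -4.34 and -1.98.

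Genes of lipid synthesis were higher to unequal degrees. Of 13 genes for galactolipids and sphingolipids, 11 were higher and none lower, with a median of 2.99. Aspa, which frees acetate for lipid synthesis, stood at 855, 809 and 809 CPM against 12.2, 10.9 and 11.0 (log2 fold change 6.71), and Ugt8a, which makes galactocerebroside, at 1015, 983 and 984 against 48.8, 52.0 and 42.6 (4.91). Fa2h was at 5.19. Of 17 cholesterol genes, 9 were higher and none lower, with a median of only 1.07. Insig1 was at 1.65 and Idi1 at 1.44. On the plain CPM scale only 3 of the 17 were called higher, and 2 were with the same weight for each class, where Msmo1 moved from 1.16 to -0.28. Over all genes 1157 of 14849 were higher on the plain CPM scale. With the same weight 1656 of 12723 were, so 2 of 17 lay near the share of all genes.

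Most genes of metabolism and iron handling were higher. Of 13 on that list, 9 were higher and 2 lower. The iron store Fth1 stood at 24218, 23999 and 23308 CPM against 3030, 2902 and 2945 (log2 fold change 3.54), and the iron carrier Trf at 3402, 3447 and 3529 against 219.6, 213 and 223 (4.51). Carbonic anhydrase Car2 was at 5.79 and apolipoprotein Apod at 5.17. The lactate dehydrogenase genes Ldha and Ldhb were lower, at -2.32 and -1.04. Of 15 cytoskeletal and transport genes, 11 were higher, among them the small heat shock protein Cryab (5.41) and Anln (5.88), and the kinesin genes Kif5a and Klc1 were lower (-1.79 and -1.02). With the same weight for each class these 2 were at -0.86 and -0.06, and none of the 15 was lower. Neither was called against committed precursors or OPCs.

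**Figure D4:**
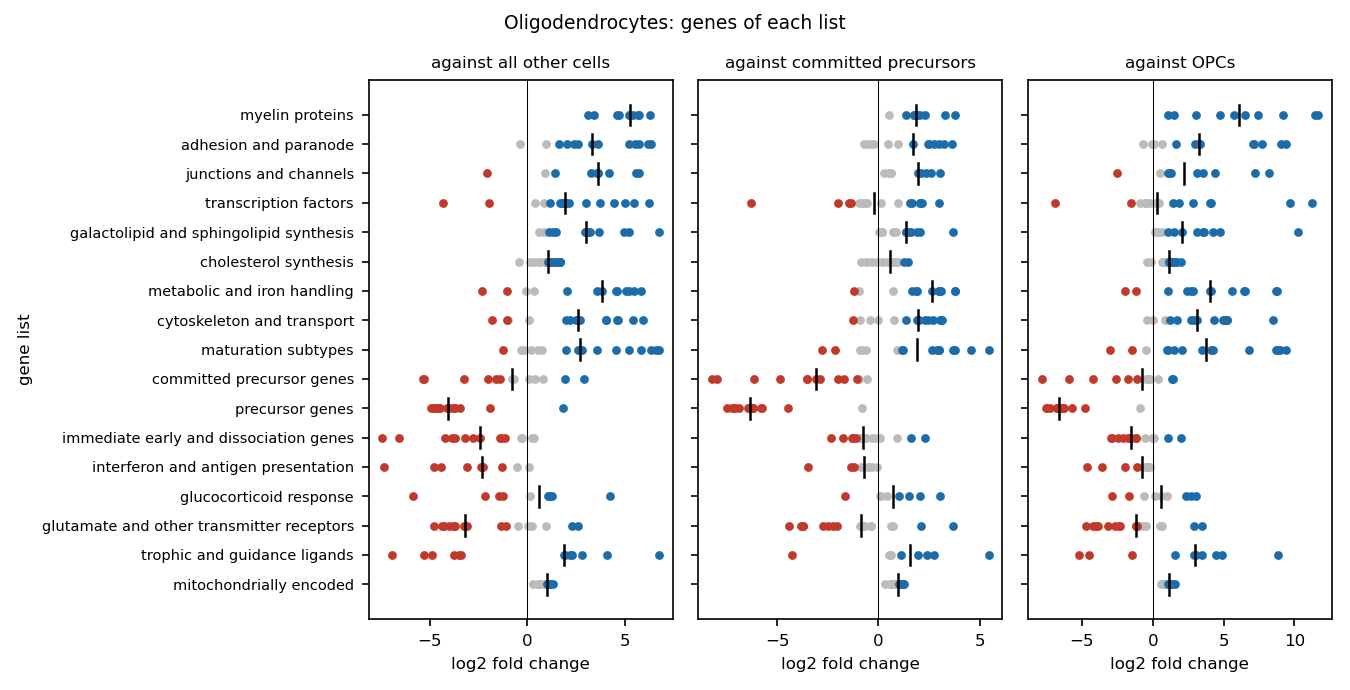
Log2 fold change of each tested gene of a list (x axis) for oligodendrocytes against all other cells on the left, committed precursors in the middle and OPCs on the right, 1 row per list, where blue points are called higher, red points called lower, grey points not called and the black bar is the median. Against all other cells, all 10 myelin protein genes are blue with a median of 5.22, and 13 of 14 precursor genes are red with a median of -4.05.

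Il33 and Ptgds were among the largest differences. By the rule of largest change, the 12 named higher genes were Ankub1, C030029H02Rik, Il33, Gm42756, Aspa, Ptgds, A230009B12Rik, Hapln2, Opalin, Galnt6, Tnni1 and Nkx6-2, with log2 fold changes of 6.19 (Nkx6-2) to 7.06 (Ankub1). Il33, a nuclear cytokine of the interleukin-1 family (19:29925114-29960718), stood at 943, 993 and 1007 CPM in oligodendrocytes against 15.0, 14.7 and 10.2 in other cells. It was next highest in astrocytes at 100 CPM, a cell type in which it is also known, and reached 31.4 in committed precursors and 3.21 in OPCs. Ptgds (2:25466709-25470046) stood at 15054, 14249 and 14849 CPM against 247, 222 and 196. Against other cells with fewer than 8 marker UMIs the log2 fold change moved from 6.73 to 8.50 for Il33 and from 6.59 to 8.28 for Ptgds. Il33 was seen in 91.0% ± 1.80 of oligodendrocytes against 0.291% of microglia and 0.272% of endothelial cells, whose median depths were 4267 and 3057 UMIs against 4703. It was still seen in 79.7% after each cell was thinned to 2000 UMIs.

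Genes known from other cells were on the lower side. The 8 named lower genes were Eng, Podxl, Adgre1, Foxq1, Cavin1, Fn1, Flt1 and Acvrl1, most of them known from endothelial cells and Adgre1 from macrophages. Eng was at 0 UMIs in all 1657 oligodendrocytes and 131 CPM in other cells, which makes it at least 369-fold lower. Podxl and Adgre1 were also at 0, at least 194-fold and at least 142-fold lower, with the limit set at 3 UMIs over the group. The largest adjusted p among these 20 named genes was 2.44e-23, for Adgre1. Of 15 immediate early and dissociation genes, 11 were lower and none higher, where 35.2% of all genes were lower. Fos stood at 359, 342 and 379 CPM against 1305, 1303 and 1334 (log2 fold change -1.34), Junb was at -3.87 and Egr1 at -0.27, not called. Of 10 interferon and antigen presentation genes 8 were lower, B2m at -2.37. Against committed precursors 3 of 8 tested were lower (21.4% of all genes) and against OPCs 4 of 9 (25.8%), with B2m called in neither. Of the 15 immediate early and dissociation genes, 5 were lower against committed precursors and 10 against OPCs, with Hspa1a and Hspa1b higher in both.

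Most transmitter receptors were lower, and ligands went both ways. Of 18 transmitter receptors and channels, 12 were lower and 2 higher. The AMPA receptor subunit Gria2 stood at 44.9, 45.0 and 44.4 CPM against 546, 575 and 533 (log2 fold change -3.09), and Grin1 was at -3.69. The metabotropic receptor Grm3 and the pacemaker channel Hcn2 were higher, at 2.57 and 2.30, with Hcn2 at 97.3, 88.6 and 85.9 CPM against 27.0, 26.5 and 26.4. Of 13 trophic and guidance ligands 7 were higher and 6 lower. The ephrin Efnb3 was at 4.08, Fgf1 at 2.29 and Pdgfa, the growth factor of OPCs, at 1.89, while the growth factors Igf1 and Bdnf were lower, at -6.92 and -3.52. Among 10 glucocorticoid response genes 5 were higher, Plin4 at 4.24 and Sgk1 at 1.27, and 4 were lower, Fkbp5 at -2.18. On the plain CPM scale 1 of the 10 was higher and 4 lower, and with the same weight for each class 2 were higher and 3 lower. Over all genes 1656 of 12723 were higher and 3864 lower with that weight.

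The calls of mitochondrial transcripts in the sums depended on the scaling. Of 13 mitochondrially encoded genes 7 were higher and none lower, with a median of 1.01, and mt-Co1 stood at 11744, 11433 and 11793 CPM against 6966, 6538 and 6605 (1.33). On the plain CPM scale none of the 13 was called, with a median of 0.48. The level of mt-Nd6 was 35.1 ± 1.99 CPM against 35.5 ± 0.362, and its libraries overlapped. The 13 fold changes ranged from 0.29 to 1.33, so the genes did not differ to the same degree.

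Committed precursors are the closest earlier stage, and the comparison asks what separates the mature cells from it. It shares the oligodendrocytes with the comparison above. Of 10878 tested genes, 1235 were higher in oligodendrocytes (11.4%) and 2329 lower (21.4%), or 655 and 3402 on the plain CPM scale, where fold changes are 0.52 lower in the median. The committed class was mixed, since 92 of its 608 cells carried 8 or more mature marker UMIs, and its OPC markers summed to 2611 to 2755 CPM. Fold changes are therefore also given against the 167, 191 and 158 committed precursors with fewer than 8 marker UMIs, a limit chosen after the data had been seen.

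Myelin genes were higher in the mature cells, and their fold changes were larger with that limit, in part by its choice of cells. Of 10 myelin genes 9 were higher, all but Pllp. Mbp stood at 2103, 2388 and 1986 CPM in committed precursors, below all oligodendrocyte libraries, and its log2 fold change was 1.83, or 6.03 with the limit. It stood at 99.6, 184 and 92.4 CPM in the limited committed precursors. Cnp, an enzyme of non-compact myelin, moved from 1.73 to 4.16. Opalin was at 227 CPM in all committed precursors and had 0 UMIs in the limited ones, which makes it at least 1253-fold higher in oligodendrocytes. The list median moved from 1.86 to 4.68, and that of the list of maturation genes from 1.92 to 5.45. With the limit the calls numbered 1682 higher and 2463 lower of 10760 genes.

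Il33 and Ptgds were also among the largest differences between these stages. The 8 named higher genes were Abca8a, Il33, Gm42756, C030029H02Rik, Ptgds, Xaf1, A230009B12Rik and Olfml1. Abca8a, a lipid transporter, stood at 123 ± 3.05 CPM against 3.12 ± 1.11 (log2 fold change 5.76), Il33 was at 5.43 and Ptgds at 4.57, with 898, 966 and 778 CPM in committed precursors. In the limited committed precursors Il33 had 0 UMIs, at least 794-fold below oligodendrocytes, and Ptgds stood at 184 CPM. Of 13 metabolic and iron genes 10 were higher, Car2 at 3.79 and Trf at 2.99. Of 17 cholesterol genes 2 were higher, Insig1 among them, which is near the 11.4% of all genes. On the plain CPM scale none of the 17 was higher and 3 were lower. With the limit on marker UMIs 11 of the 17 were higher, where 1682 of 10760 genes were.

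Most precursor genes were lower. Of 13 committed precursor genes 11 were lower and none higher, and of 14 precursor genes 13 were lower. The 8 named lower genes were Matn1, Chst5, Neu4, Mycl, 5730559C18Rik, C1ql1, Tnr and Acan. Matn1 had 0 UMIs in oligodendrocytes and was at least 150-fold lower. Neu4 stood at 399, 433 and 433 CPM in committed precursors and 0.974 in oligodendrocytes (-8.21), and the matrix protein Tnr was at -7.23. Fyn, a kinase that acts at the start of myelination, fell to 52.6 CPM from 853 (-3.51), and Bcas1, often used for early myelinating cells, was at -0.56 and not called. Olig2 was lower at -1.46 (-1.69 with the limit) and Sox10 not called at 0.15, so 6 transcription factors were higher and 4 lower.

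Nfasc and Klk6 turned with the limit on the committed precursors, which removes cells by their mature markers. Nfasc, an adhesion protein of the paranode, was at -0.71, not called, against all of them and 2.24 against those with fewer than 8 marker UMIs. Klk6, a secreted protease, was at -0.63, not called, with 49.9 CPM in all committed precursors, and had 0 UMIs in the limited ones, at least 18.3-fold below oligodendrocytes. The calcium-binding protein S100b was lower in both, at -2.17 and -1.84.

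Against OPCs, the start of the lineage, 1752 of 11616 genes were higher in oligodendrocytes (15.1%) and 3002 lower (25.8%), or 894 and 4602 on the plain CPM scale, where fold changes are 0.67 lower in the median. This comparison also shares the oligodendrocytes, and its OPCs were chosen to carry at most 2 mature marker UMIs. All 10 myelin genes were higher with a median of 6.10, and Mbp stood at 58.0, 48.3 and 44.0 CPM in OPCs. Among the 8 named higher genes Serpinb1a, Tmem125, Galnt6, St18, Sec14l5 and Ankub1 had 0 UMIs in OPCs. Serpinb1a, a protease inhibitor, was at 205 ± 14.5 CPM and at least 333-fold higher, Tmem125 at least 289-fold, Galnt6 at least 261-fold, St18 at least 183-fold, Sec14l5 at least 138-fold and Ankub1 at least 121-fold. Mal and Opalin were at 11.67 and 11.43.

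Of 17 cholesterol genes 10 were higher than in OPCs, and of 13 metabolic and iron genes 11, or 1 and 10 on the plain CPM scale. The named lower genes were Gsx1, at 0 UMIs in oligodendrocytes and at least 196-fold lower, and Acta2, Tagln, Chst5, Chst7, Neu4, Vwc2 and Rasl11a. Acta2 and Tagln are genes of mural cells, whose 5 markers summed to 1617 to 1910 CPM in the OPC class and were all lower in oligodendrocytes, so the OPC class held mural RNA and its part in the contrast was not tested. S100b was lower at -1.49 and Olig2 at -1.56, and of the transcription factors 7 were higher and 2 lower.

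Within the 1657 oligodendrocytes some genes were even from cell to cell and others were not. In 1638 cells thinned to 2000 UMIs, Mbp had a median of 10 UMIs, with a 5th to 95th percentile of 5 to 18. Ptgds ranged from 1 to 70.15 UMIs around a median of 27, and 4.64% of cells had none. Il33 had a median of 2 UMIs and Opalin of 3. Klk6 was not seen in 97.6% of thinned cells, S100b in 89.7% and Fos in 65.8%. Without thinning Klk6 was seen in 4.09% ± 0.888 of cells, S100b in 18.5% ± 0.320 and Serpina3n in 1.57% ± 0.239 (SD, n = 3).

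Cells with Klk6 had another profile from the rest. The split compared 28, 17 and 23 cells with at least 1 Klk6 UMI with 558, 533 and 498 with none, a limit set after the cell numbers had been seen, and the Klk6 cells had more UMIs (medians of 5506, 6157 and 6010 against 4533.5, 4655 and 4796.5). Of 8511 genes, 68 were higher (0.799%) and 78 lower (0.916%), or 82 and 61 on the plain CPM scale. S100b stood at 630.4, 1054 and 750.3 CPM in Klk6 cells and at 61.3, 64.0 and 78.9 in the others, a log2 fold change of 3.48. Ptgds was lower, at 4345, 1448 and 2958 CPM against 15733, 14782 and 15499 (-2.48), and for both genes the groups did not overlap. Opalin was also lower, at 692, 357 and 329 CPM against 1636, 1629 and 1548 (-1.81), and Il33 at 462, 232 and 279 against 973, 1025 and 1046 (-1.64).

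Other named genes of that split were Nkx2-9 (5.56), Hopx (2.58), Cbs (2.38) and Cdkn1c (2.35) on the higher side and Phlda1 (-2.96), Prickle1 (-2.02) and Erbb4 (-1.95) on the lower side, with adjusted p of at most 0.00255 (Erbb4). Nkx2-9 and Hopx encode homeodomain proteins and Erbb4 a neuregulin receptor. From the list of known maturation genes, Anxa5 (2.01), Hapln2 (1.10) and Apod (1.02) were higher. Mbp was at 0.06 and was not called, and among the 10 myelin genes only Opalin was. After thinning S100b was at 3.08, Ptgds at -3.05, Opalin at -1.88 and Il33 at -2.07, and each was still called, as were Nkx2-9, Cdkn1c and Phlda1. Hopx, Cbs, Prickle1, Erbb4, Anxa5, Hapln2 and Apod were not called after thinning. Hapln2 was then at 0.77, Apod at 0.68 and Erbb4 at -1.26, while Cbs was at 2.25 and Anxa5 at 1.73. The thinned split held 18, 11 and 10 Klk6 cells, so a lost call does not show that a difference was gone.

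The same genes were counted in single cells. S100b was seen in 85.6% ± 12.5 of Klk6 cells and 15.7% ± 0.279 of the others, Hopx in 52.8% ± 17.4 and 7.67% ± 0.375, and Enpp6 in 77.0% ± 21.6 and 19.5% ± 1.97. Ptgds was seen in 66.1% ± 11.5 against 98.5% ± 0.726, and Il33 in 53.4% ± 5.50 against 92.6% ± 2.23 (SD, n = 3 mice). The Klk6 cells were only 68 in all, so the shares of a mouse rest on 17 to 28 cells.

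Enpp6 is a gene of the early lineage, which the rule limited to fewer than 5 UMIs together with Gpr17 and Bmp4, so the split by Enpp6 describes cells near that limit. The 57, 69 and 52 cells with at least 2 Enpp6 UMIs were compared with 469, 417 and 411 without (medians of 5135, 5506 and 5554.5 against 4415, 4534 and 4710.0 UMIs), and 107 of 8388 genes were higher (1.28%) and 95 lower (1.13%). Klk6 was at 5.46, with 214, 126 and 120.0 CPM against 6.47, 0 and 3.39, and S100b at 3.87, with 439.6, 494 and 508 CPM against 39.7, 19.5 and 37.3. The integrin subunit Itgb5 (2.70), Hopx (2.58) and Tln2 (2.35) were the other named higher genes, and Cntn1 (-2.70), Phlda1 (-2.43), Nr4a1 (-1.96), Ptgds (-1.94) and Prickle1 (-1.93) the lower ones. Of 8 tested committed precursor genes none was called in either direction (Bcas1 at -0.28, Tcf7l2 at -0.05), which at the shares of 1.28% and 1.13% over all genes says little about them. Opalin was lower at -1.25. Of the Klk6 cells 41 of 68 (60.3%) also had 2 or more Enpp6 UMIs, which was 23.0% of the Enpp6 cells, so both splits share cells. After thinning 17 of the 202 calls were shared. Klk6 (3.64), S100b (3.21), Ptgds (-2.79) and Opalin (-1.49) were still called, Hopx, Tln2, Cntn1, Phlda1, Nr4a1 and Prickle1 were not, and Itgb5 was not tested. Cntn1, with 9 UMIs in the Enpp6 cells before thinning, was then at -7.27. The thinned split held 14, 13 and 11 Enpp6 cells, so a lost call does not show that a difference was gone.

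**Figure D5:**
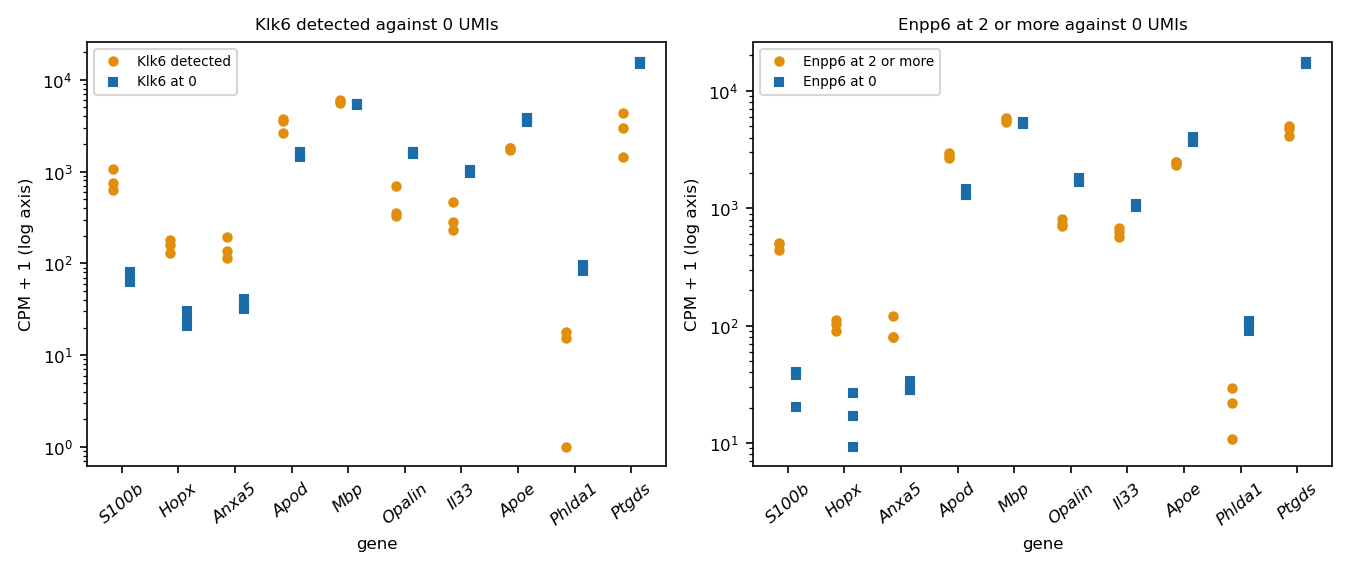
Level in CPM + 1 (y axis, log scale) of named genes in sums of oligodendrocytes, with Klk6-detected against Klk6-zero cells on the left and cells with at least 2 against 0 Enpp6 UMIs on the right, 1 point per mouse and group. S100b lies higher and Ptgds and Opalin lower in the Klk6 cells and in the Enpp6 cells of all 3 mice, while the Mbp levels lie side by side.

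The early lineage limit removed 97 cells that had 8 or more mature marker UMIs. Of these, 82 had 5 or more Enpp6 UMIs and 62 had Gpr17. S100b was seen in 87 (89.7%), Klk6 in 24 (24.7%), Il33 in 21 (21.6%) and Ptgds in 83 (85.6%). These cells are not among the 1657, and the values describe cells next to the limit.

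Cells with and without Il33 differed in some of the same genes. The splits share cells, since 32 of 68 Klk6 cells (47.1%) and 54 of 178 Enpp6 cells had no Il33 UMI. The 474, 451 and 440 cells with at least 2 Il33 UMIs were compared with 59, 55 and 36 without (medians of 4556.5, 4694 and 4869.5 against 4960.0, 5341 and 5516.5 UMIs), and 26 of 8450 genes were higher (0.308%) and 61 lower (0.722%). S100b stood at 64.3, 53.1 and 70.6 CPM in Il33 cells against 310.4, 412 and 553 (-2.70), and Klk6 was at -3.45. The other named lower genes were Ctps (-2.32), Shisa8 (-2.17) and Chadl (-1.93). Ptgds was higher, at 16059, 15591 and 15647 CPM against 9806, 6060 and 5230.2 (1.24), as were Gm42756 (1.68), Kif21b (1.35), Apoe (1.32) and Aebp1 (1.27), the last with an adjusted p of 0.00248. None of these 5 higher genes was called after thinning, when Ptgds was at 0.48 and Apoe at 0.39, whereas S100b stayed at -2.64. None of the 10 myelin protein genes was called in either direction, which at the shares of 0.308% and 0.722% over all genes says little about them. Of the 1657 cells 150 had no Il33 UMI.

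Cells with Fos had more of other immediate early genes. The 185, 169 and 168 cells with at least 2 Fos UMIs were compared with 274, 289 and 268 without. Of 8227 genes, 20 were higher (0.243%) and 1, Gucy1b1, lower (0.0122%), the latter named after its value had been seen. None of the 10 myelin protein genes was called, which at these shares over all genes says little about them. Of 12 tested immediate early and dissociation genes 9 were higher, and Egr1, for example, stood at 924, 892 and 900.0 CPM against 401, 344 and 385 (1.26). Fosb was at 2.13, Btg2 at 2.09, Ier2 at 1.61 and Dusp1 at 1.59. Meg3, a non-coding RNA abundant in neurons, was at 1.85, but its 119, 507 and 477 CPM against 118, 87.9 and 91.9 were nearly equal in mouse 1, and it was not called after thinning or by DESeq2. Meg3 was at 7660 CPM in the other cells.

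The 3 mice gave nearly the same oligodendrocyte profile. Over 3080 genes with at least 50 CPM, the median log2 ratio of the highest to the lowest mouse was 0.139, 18 genes differed by more than 1.5-fold and 1 by more than 2-fold. That gene was Meg3, at 116, 314 and 240.0 CPM. The astrocyte transporter Slc1a2 followed with 140.2, 70.4 and 107 CPM, and mt-Nd3 stood at 1422, 1785 and 2266. These genes are named after their values had been seen.

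Viral barcode transcripts were rare in oligodendrocytes. At least 1 barcode UMI was found in 3.58%, 3.09% and 3.84% of the cells of mouse 1, 2 and 3, a mean of 3.50% ± 0.380 and 58 of 1657 cells (exact 95% interval 2.67 to 4.50). Microglia, with a similar median depth of 4267 against 4703 UMIs, had 3.98%, endothelial cells 2.89% and the authors' excitatory neurons 58.8%. Committed precursors, at a median of 4750 UMIs, had 6.05% ± 2.32 (36 of 608 cells, 4.18 to 8.10), and inhibitory neurons, at 13582 UMIs, 5.67% ± 2.23. The share in oligodendrocytes was not above that in microglia and is not read as expression, and the source of these UMIs was not tested. Only 2 of 1657 oligodendrocytes had 5 or more barcode UMIs, and after thinning to 2000 UMIs the shares were 1.76% in oligodendrocytes, 2.19% in microglia, 2.79% in committed precursors, 1.46% in inhibitory neurons and 32.5% in the excitatory neurons.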

How the data were processed

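The authors prepared Chromium 3′ libraries from 3 unsorted mice and 1 sorted pool and made the deposited raw UMI counts with Cell Ranger 3.0.2 against mm10, with no normalization. Per the submitters' notes, Seurat 3.1.4 was used downstream. The deposited metadata table, used only for the list of excitatory neurons, gave no oligodendrocyte label. Following the methods, cells were kept with 500 to 8000 genes, UMI totals of 1000 to 60000 and less than 20% of UMIs from mitochondrial genes. The raw UMIs of a cell group were added up in each library, and sums were compared by the quasi-likelihood test of edgeR 4.0.16 in R 4.3.3, with filterByExpr, TMM factors, the library as block and Benjamini-Hochberg adjustment. DESeq2 1.42.0, other scalings, filters, limits on cells and thinning to 2000 UMIs were alternatives, and the code was tested on simulated counts. The viral feature was left out of totals. P-values and SEs rest on the paired sums of 3 mice and on an error that the test shares across genes. They do not measure the spread of a single gene between the 3 mice.

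The library blocks pair the cell groups, since both came from the same mouse. Members and gene lists were chosen with earlier results of these data known. Named genes had the largest changes among called genes with at least 50 CPM in the higher group and the same direction in 3 of 3 libraries (12 and 8, 8 and 8, 5 and 5 per comparison), with the 10 highest levels and genes of the lists. The splits by Klk6, Enpp6 and Fos were added after the data had been seen. Promoters came from RefSeq and gene positions from GENCODE M21. Some genes that the rule names are not reported here.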

Additional observations from a re-analysis of the deposited data

Results flagged for a closer look

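In the sorted library, which the comparisons do not use, 8 cells passed the oligodendrocyte rule, above the limit of 3 that a count of 0 allows. They had a median of 12156 UMIs and 6.56% mitochondrial UMIs. Their summed levels were 7959.6 CPM of Ptgds, 1428 of Opalin and 505 of Il33, and Klk6 had 0 UMIs. The sort was for EGFP, and how these cells passed it was not tested.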

How the results depend on the processing

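Counts of called genes stayed within 1.5 times under DESeq2, RLE factors, plain library totals, no low-count filter, other marker limits and without the replicate block for the comparisons with other cells, committed precursors and OPCs. Without each mouse in turn they were 6986 to 7204, 3608 to 3693 and 4821 to 4884, and 62 to 103 for the Il33 split, 99 to 114 for Klk6, 169 to 203 for Enpp6 and 19 to 26 for Fos. Each library holds both cell groups of the same mouse, and without that pairing the counts were 7306, 3567, 4754, 90, 132, 198 and 20. Within the oligodendrocytes DESeq2 called 36 genes for Il33, 69 for Klk6, 94 for Enpp6 and 10 for Fos, against 87, 146, 202 and 21, and thinned cells gave 13, 40, 40 and 9, of which 7, 27 and 17 were shared with the unthinned calls for the Il33, Klk6 and Enpp6 splits. DESeq2 also moved the higher share of calls to 60.9% from 46.6% for Klk6 and to 66.0% from 53.0% for Enpp6, where thinning gave 30.0% and 27.5%, and for Il33 the share was 29.9%, 19.4% by DESeq2 and 7.69% after thinning. Plain totals gave 15.2%, 16.1% and 16.3% higher calls against other cells, committed precursors and OPCs. Thinning regroups the cells with fewer UMIs, and the cause of the other differences was not tested. Of the values of genes named for their size of change, 982 kept their direction and call under the alternatives, 23 lost the call and none turned. Among called genes of the lists, 9630013A20Rik, lower in the plain sum, was at 1.34 against other cells with fewer than 8 marker UMIs, Msmo1 (1.16 to -0.28) and Pdk4 (1.09 to -0.50) turned with equal weight of the classes, Cnksr3 (-2.87 to 0.66) and Epb41l2 turned against the limited committed precursors and Elovl5 turned in the thinned Klk6 split, each but the first without a call. Equal weight lost 22 of 174 calls of list genes. The share of oligodendrocytes, 8.52%, was 7.97% at 20 marker UMIs, 8.76% over cells with 1000 genes, 3.43% under 10% mitochondrial UMIs and 14.2% of cells off the authors' list. The share with a barcode UMI was 0.125% at 5 UMIs and 1.76% after thinning. Splits by at least 2 UMIs of Klk6 or Serpina3n were planned and not run, since a mouse had 8 and 0 such cells, under the minimum of 10. Depth limits the Klk6 split, which rests on 17 to 28 cells a mouse.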
